A study of Mus musculus with 25 samples.

Results

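Liver RNA of male C57B/6J mice was read for 10 genes of fatty acid uptake and binding: Mfsd2a, Cd36, Slc27a2, Slc27a4, Vldlr, Fabp1, Fabp2, Fabp4, Fabp5 and Lpl. The genes were chosen by symbol from a fixed list of 10 among 41388 gene identifiers, and the list was drawn up with earlier results of these data known, so their group levels are given as a description. All 10 were among the 14065 genes kept for testing. There were 25 libraries, 1 per mouse, in 5 groups. The chow-fed group had 3 wild-type mice with the empty vector (WT EV). On Western diet (WD) there were 6 mice each of WT EV and of WT with the NAMPT vector (WT NAMPT). Liver Sirt1 knockout mice (LKO) on WD numbered 5 with each vector. All mice were about 8 weeks old at the start, were kept for 12 weeks after the vector and were 20 weeks old at sampling. They carried floxed Sirt1 alleles, and WT mice were littermates without Cre. LKO mice carried Albumin-Cre, which deletes the floxed part of Sirt1 in hepatocytes and leaves it in other liver cells. All mice received an AAV8 virus by vein, which was empty or carried NAMPT under the thyroxine-binding globulin promoter, a promoter active in hepatocytes. The study asked how much of the response of the liver to NAMPT, the enzyme that makes an NAD precursor, needs SIRT1, an NAD-dependent deacetylase.

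Long-chain fatty acids reach hepatocytes bound to albumin or packed in lipoproteins. At the cell surface they are taken up with the help of the scavenger receptor CD36 and of fatty acid transport proteins of the SLC27 family, which also join the acid to coenzyme A. Inside the cell the small FABP proteins bind them and carry them to membranes, to peroxisomes and mitochondria and to nuclear receptors. Lipoprotein lipase, encoded by Lpl, frees fatty acids from circulating triglyceride, and the VLDL receptor takes up lipoprotein remnants. Several of these genes are textbook targets of the PPAR nuclear receptors, which bind DNA with RXR at direct repeats of AGGTCA spaced by 1 base.

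On Western diet, 4 of these genes were called as higher in every fit that was run: Mfsd2a, Cd36, Fabp2 and Fabp1. Their promoters are shown for that reason, 5′ to 3′ on the strand of the gene, from 250 bases before to 50 bases after the start in RefSeq (GRCm38.p6). Capitals mark a match to the direct repeat of AGGTCA with 1 base between, with up to 2 mismatches, on either strand.
Mfsd2a (chr4:122961139-122961438, minus strand): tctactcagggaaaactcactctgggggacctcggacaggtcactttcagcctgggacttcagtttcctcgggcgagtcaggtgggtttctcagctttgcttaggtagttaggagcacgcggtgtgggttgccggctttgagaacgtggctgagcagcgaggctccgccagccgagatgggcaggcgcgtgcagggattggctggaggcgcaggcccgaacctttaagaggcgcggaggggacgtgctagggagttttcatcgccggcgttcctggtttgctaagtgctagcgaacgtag
Cd36 (chr5:17835847-17836146, minus strand): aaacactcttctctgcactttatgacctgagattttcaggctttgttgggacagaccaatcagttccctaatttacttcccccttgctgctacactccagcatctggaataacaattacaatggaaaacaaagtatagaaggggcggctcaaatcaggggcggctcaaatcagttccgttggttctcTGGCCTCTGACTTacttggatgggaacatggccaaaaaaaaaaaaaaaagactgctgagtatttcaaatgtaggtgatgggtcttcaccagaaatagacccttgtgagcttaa
Fabp2 (chr3:122894822-122895121, plus strand): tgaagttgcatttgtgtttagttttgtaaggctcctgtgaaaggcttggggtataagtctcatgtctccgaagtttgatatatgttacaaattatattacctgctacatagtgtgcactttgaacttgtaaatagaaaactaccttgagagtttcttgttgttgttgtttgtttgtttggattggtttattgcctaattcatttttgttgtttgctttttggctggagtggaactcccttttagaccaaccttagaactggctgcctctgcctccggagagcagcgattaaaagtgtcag
Fabp1 (chr6:71199629-71199928, plus strand): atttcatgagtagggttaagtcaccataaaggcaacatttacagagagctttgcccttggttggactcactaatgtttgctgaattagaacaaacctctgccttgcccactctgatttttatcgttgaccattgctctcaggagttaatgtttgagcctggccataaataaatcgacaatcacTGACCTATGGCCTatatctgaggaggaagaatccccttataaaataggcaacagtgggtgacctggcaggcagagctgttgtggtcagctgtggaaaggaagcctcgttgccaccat
The match in Fabp1, with 1 mismatch, lay from 67 to 55 bases before the start. The match in Cd36, with 2 mismatches, lay from 63 to 51 bases before the start. Both were on the strand opposite to the gene. The window of Cd36 lay inside the span of that gene (chr5:17781690-17888959), so it shows 1 start within it. Which start of Cd36 these livers used was not tested. Of 32817 promoter windows of this length in the same table, 3.86% held such a match. The half-site AGGTCA alone, on either strand, was in the windows of Mfsd2a, Cd36, Fabp1 and Slc27a2 and in 16.3% of all windows. It overlapped the repeat in Fabp1 and not in Cd36. TATAAA, on either strand, was in the window of Fabp1 and in 13.6% of all windows. CACGTG was in no window of a listed gene and in 7.15% of all windows. RefSeq windows were present for 7 of the 10 genes, and Fabp4, Fabp5 and Lpl had no entry. These letters are descriptions of the windows and say nothing about binding.

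Total counts ran from 20166175 to 32937326 per library. Sirt1 was between 7.16 and 11.1 CPM (library-scaled counts, with TMM factors) in all 25 libraries and was not called lower in LKO with either vector, so whole-gene counts did not check the genotype. Nampt was 38.3 to 54.1 CPM in WD WT EV and 46.8 to 77.8 CPM in WD WT NAMPT, which overlapped. It was 46.0 to 75.6 CPM in LKO EV and 53.9 to 127 CPM in LKO NAMPT, and Nampt was called in none of these comparisons. WT NAMPT mouse 6 and mouse 2 and LKO NAMPT mouse 3 had the lowest quality weights in the fit. In bulk liver, fewer cells of a type and less RNA per cell cannot be told apart.

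Per kilobase of exon, Fabp1 stood far above the other genes in every group. Fabp1 (ENSMUSG00000054422, chr6:71199827-71205023, plus strand), the liver fatty acid binding protein, had a mean of 5366 ± 104 CPM per kb (SD, n = 3) on chow. It had 10841 ± 2122 CPM per kb (SD, n = 6) in WD WT EV. Of the CPM per kb summed over the 4 FABP genes, Fabp1 made up 99.1 to 99.2% on chow and 97.7 to 98.1% in WD WT EV. The next in the order on the same scale were Slc27a2, with means of 188 to 286 CPM per kb over the 5 groups, and Fabp2, with means of 32 on chow and 168 to 212 on WD. Vldlr was the lowest in every group, with means of 0.365 to 0.759 CPM per kb. Mfsd2a ranked 9 of 10 on chow and 4 of 10 in each of the WD groups. Lpl and Slc27a4 changed places: Slc27a4 stood above Lpl in the chow and EV groups, and Lpl stood above Slc27a4 in both NAMPT groups, where their levels overlapped. The length used for Fabp5 was 3567 bases, against 987 bases for its principal transcript, so its level per kb is understated by that choice. For Lpl it was 6810 against 4115 bases, and for Fabp4 637 against 896 bases. The places of Lpl and Fabp4 in this order thus also depend on the length used.

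**Figure D1:**
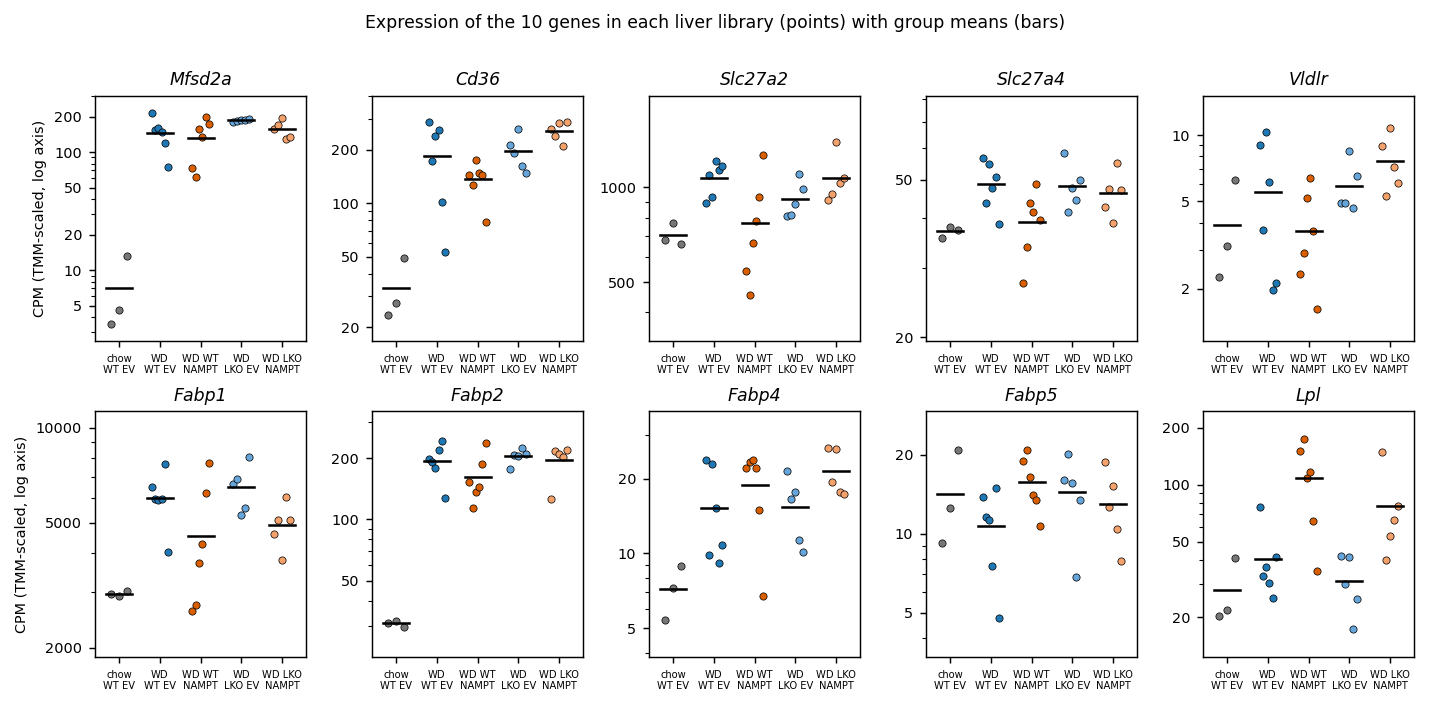
CPM on log axes (vertical) of each of the 10 genes in the 5 groups (horizontal), 1 point per library with the group mean as a bar. Mfsd2a, Cd36 and Fabp2 are lower in the 3 chow libraries than in every WD library, narrowly for Cd36 in WD WT EV mouse 8 (53.3 CPM), and Lpl is highest in WD WT NAMPT mice 1 and 2, at 151 and 174 CPM.

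In WT EV mice, the Western diet raised 7 of the 10 genes and lowered 0, by the limma fit across all genes at an adjusted p of 0.05. Over all 14065 genes, 22% were called in this comparison and 10.1% were called as higher on WD. The 7 genes were Mfsd2a, Cd36, Fabp2, Fabp1, Fabp4, Slc27a2 and Slc27a4, and in each the 6 WD libraries lay above the 3 chow libraries. Libraries did not overlap in 16.1% of all genes. The median log2 fold change was 0.85 over the 10 genes and -0.005 over all genes. The list was chosen with such values known, so no support is drawn from these shares.

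Mfsd2a (ENSMUSG00000028655, chr4:122946850-122961188, minus strand) encodes a membrane transporter of lysophosphatidylcholine, the form in which docosahexaenoic acid enters the brain, and in liver it is induced by fasting. Its chow values were 3.51, 4.63 and 13.1 CPM, and its WD WT EV values ran from 75.0 to 215 with a median of 149.7 CPM. No library of either group came near the other, although chow mouse 3 was well above the other chow mice. The fitted log2 fold change was 4.88 ± 0.33 (SE), or 29.5-fold, with a limma adjusted p of 2.09e-10. The ratio of mean CPM was 20.5. Its log2 fold change was 4.14 without chow mouse 1, 4.36 without chow mouse 2 and 5.14 without chow mouse 3, and it was called in each of these fits.

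Cd36 (ENSMUSG00000002944, chr5:17781690-17888959, minus strand), the long-chain fatty acid receptor, gave 23.4, 27.3 and 49.0 CPM on chow. In WD WT EV it ran from 53.3 to 286 with a median of 205 CPM. The groups did not overlap, but the lowest WD mouse, number 8, was close to the highest chow mouse. The rise of Cd36 on the log2 scale was 2.58 ± 0.29 (SE), a 5.99-fold change with a limma adjusted p of 1.01e-06. Spread within WD WT EV was wide for Cd36, with a coefficient of variation of 50.0%.

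Fabp2 (ENSMUSG00000023057, chr3:122895072-122899506, plus strand) encodes the intestinal fatty acid binding protein and is also transcribed in liver. Its chow values were 31.2, 31.9 and 29.7 CPM. Its WD WT EV values ran from 128 to 242 with a median of 195 CPM. The lowest WD library was thus several times above every chow library, and chow libraries hardly differed. The rise of Fabp2 on the log2 scale was 2.60 ± 0.13 (SE), a 6.05-fold change with a limma adjusted p of 2.97e-12. Of the listed intestinal epithelium markers, Vil1, Cdh17 and Cdx2 were at or near 0 in all 25 libraries, with highest values of 0.623, 0.209 and 0.0488 CPM. Lgals4, another gene of that list, ran from 1.79 to 6.76 CPM and was not called under the diet (limma adjusted p of 0.651). Within the FABP genes, Fabp2 moved from 0.558 to 0.621% of the summed CPM per kb on chow to 1.7 to 2.05% in WD WT EV.

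Fabp1 gave 2967, 2910.4 and 3025 CPM on chow and 4029.8 to 7656 CPM in WD WT EV, with a median of 5943 CPM. All WD WT EV libraries were higher, and the chow libraries lay within a narrow range. The log2 fold change was 1 ± 0.17 (SE), or 2.01-fold, with a limma adjusted p of 0.000189. Mfsd2a, Cd36, Fabp2 and Fabp1 were called as higher on WD in all 12 alternatives and in all 9 fits that left out 1 library.

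The other called genes were called in fewer fits, Fabp4 in 9, Slc27a2 in 8 and Slc27a4 in 6 of the 12 alternatives. Fabp4 (ENSMUSG00000062515, chr3:10204347-10208576, minus strand), the binding protein of adipocytes, macrophages and endothelium, gave 5.38, 7.26 and 8.88 CPM on chow and 9.17 to 23.7 CPM in WD WT EV. The fitted rise of Fabp4 was 2.02-fold, with a limma adjusted p of 0.0240. Slc27a2 (ENSMUSG00000027359, chr2:126552407-126588243, plus strand), the very long-chain acyl-CoA synthetase and transport protein of hepatocytes, gave 682, 769 and 661 CPM on chow and 894 to 1217 CPM in WD WT EV. The fitted rise of Slc27a2 was 1.48-fold, with a limma adjusted p of 0.0051. Slc27a4 (ENSMUSG00000059316, chr2:29802634-29817522, plus strand), a more widely expressed transport protein, gave 35.7, 38.1 and 37.3 CPM on chow and 38.6 to 56.8 CPM in WD WT EV. The fitted rise of Slc27a4 was 1.29-fold, with a limma adjusted p of 0.0237. All 3 lost the call without chow mouse 1 (adjusted p of 0.334 for Fabp4), and Fabp4 and Slc27a4 also lost it without chow mouse 2 or WD WT EV mouse 1 or 4. A stretch of 419 exon bases of Slc27a2 overlaps the antisense gene Gm26697. The study's methods counted unambiguous reads only, so reads within that stretch were left out of Slc27a2 if strand was not used.

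Lpl, Vldlr and Fabp5 did not pass the test under the diet. Lpl (ENSMUSG00000015568, chr8:68880491-68907448, plus strand), which encodes lipoprotein lipase, was 20.3, 21.7 and 41.0 CPM on chow and 25.2 to 76.0 CPM in WD WT EV. The groups overlapped, and the log2 fold change of Lpl was 0.70 with a limma adjusted p of 0.130. It was 0.31 without chow mouse 1, 0.36 without chow mouse 2 and 0.08 with 2 surrogate variables. Over all alternatives it reached 1.15, where it was called with an adjusted p of 0.0124 in a fit that treats the replicate number as a block. Vldlr (ENSMUSG00000024924, chr19:27216484-27254231, plus strand), the VLDL receptor, was 2.27 to 6.27 CPM on chow and 1.98 to 10.3 CPM in WD WT EV. Its log2 fold change had a 95% interval of -0.29 to 1.41, with a limma adjusted p of 0.346. Over all 25 libraries, between 30 and 286 reads lay behind each Vldlr value. Fabp5 (ENSMUSG00000027533, chr3:10012548-10016607, plus strand), the epidermal binding protein that macrophages also make, was 9.26 to 20.9 CPM on chow and 4.76 to 15.0 CPM in WD WT EV. For Fabp5 the 95% interval of the log2 fold change was -0.79 to 0.38, with a limma adjusted p of 0.646. Fabp5 has near-identical processed copies elsewhere in the genome, so its counts are uncertain.

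**Figure D2:**
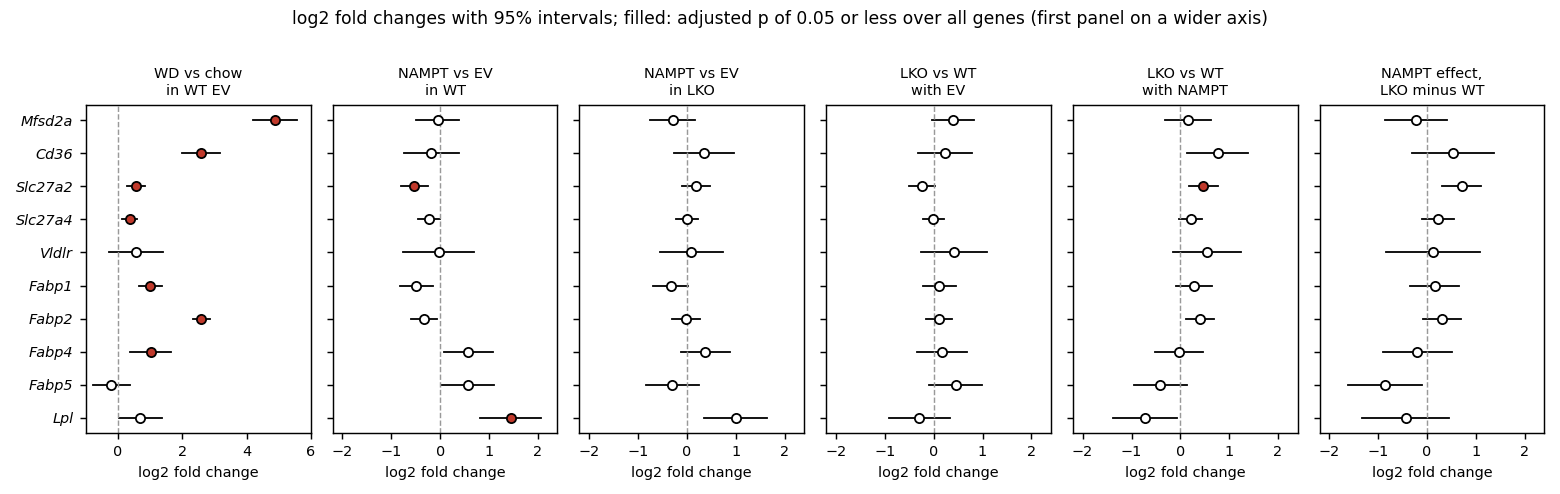
Fitted log2 fold changes (points) with 95% intervals (lines) of the 10 genes in each comparison, with the interaction in the last panel; filled points have an adjusted p of 0.05 or less over all genes. Filled points number 7 under the diet, 2 for NAMPT in WT and 1 for LKO against WT with NAMPT.

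Other genes of the pathway were read from lists set up for comparison. Of 16 genes of lipoprotein lipolysis and receptors, 8 rose on WD and 0 fell. The largest rise was that of Apoc2, the activator of lipoprotein lipase, at 2.87-fold (limma adjusted p of 4.35e-08), and Gpihbp1, which carries the lipase to the capillary surface, rose 1.47-fold. Of 13 tested genes of the other fatty acid transport, binding and activation list, only Got2, which rose 1.20-fold, and Acsl4, which fell 1.6-fold, were called. Further 6 genes of that list (Slc27a6, Fabp3, Fabp6, Fabp9, Fabp12 and Mfsd2b) stayed under the filter. The median log2 fold change was 0.36 for the lipolysis list and 0.05 for the other transport list, against 0.85 for the 10 genes.

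PPAR genes moved on the same diet. Ppara, the receptor that drives fatty acid oxidation, rose 2.05-fold and Pparg, the receptor of lipid storage, rose 2.44-fold, while Ppard fell 3.33-fold. Of 5 hepatic PPARG targets 4 rose, among them the lipid droplet genes Cidec (24-fold), Plin4 (6.81-fold) and Plin2 (1.78-fold). Of 13 hepatic PPARA targets 7 rose and 1, Pdk4, fell, and the rises included Vnn1 (6.69-fold), Acaa1b (2.63-fold) and Cpt1a (1.91-fold). Their median log2 fold changes were 3.48 and 0.90.

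Clock genes and other cell markers also differed between the diets. Of 14 clock genes 6 rose, with Dbp at 16.5-fold, and 4 fell, with Arntl at 3-fold lower. The hour of collection is not labelled, and its part in the diet differences was not tested. Of 6 pan-macrophage markers 1, Cd68, rose 1.73-fold, and 0 of 7 lipid-associated macrophage markers passed the test. The log2 fold changes of those 7 were all above 0, with a median of 1.57. The adipocyte markers Adipoq, Lep and Plin1 had a median of 0 CPM over the 25 libraries and highest values of 1.09, 1.26 and 0.436 CPM. Cfd of the same list ran from 0.0413 to 75 CPM and did not pass the test under the diet (limma adjusted p of 0.281). The summed CPM of the adipocyte list was 0.947 to 1.9 on chow and 1.85 to 62.1 in WD WT EV, with a median of 32.8. Adrb3, another of the 6 listed adipocyte genes, fell 2.4-fold. Of 7 Kupffer cell markers 2 rose, Cd5l 2.09-fold and Folr2 1.72-fold. Of 7 endothelial markers Lyve1 rose 2.19-fold and Kdr fell 1.15-fold, and of 7 stellate cell markers Lrat rose 1.45-fold and Col3a1 rose 2.16-fold. Of 8 hepatocyte markers 3 fell (Serpinc1, Fgb and Ahsg), by 1.21 to 1.39-fold. The part of these markers in the diet differences was not tested.

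**Figure D3:**
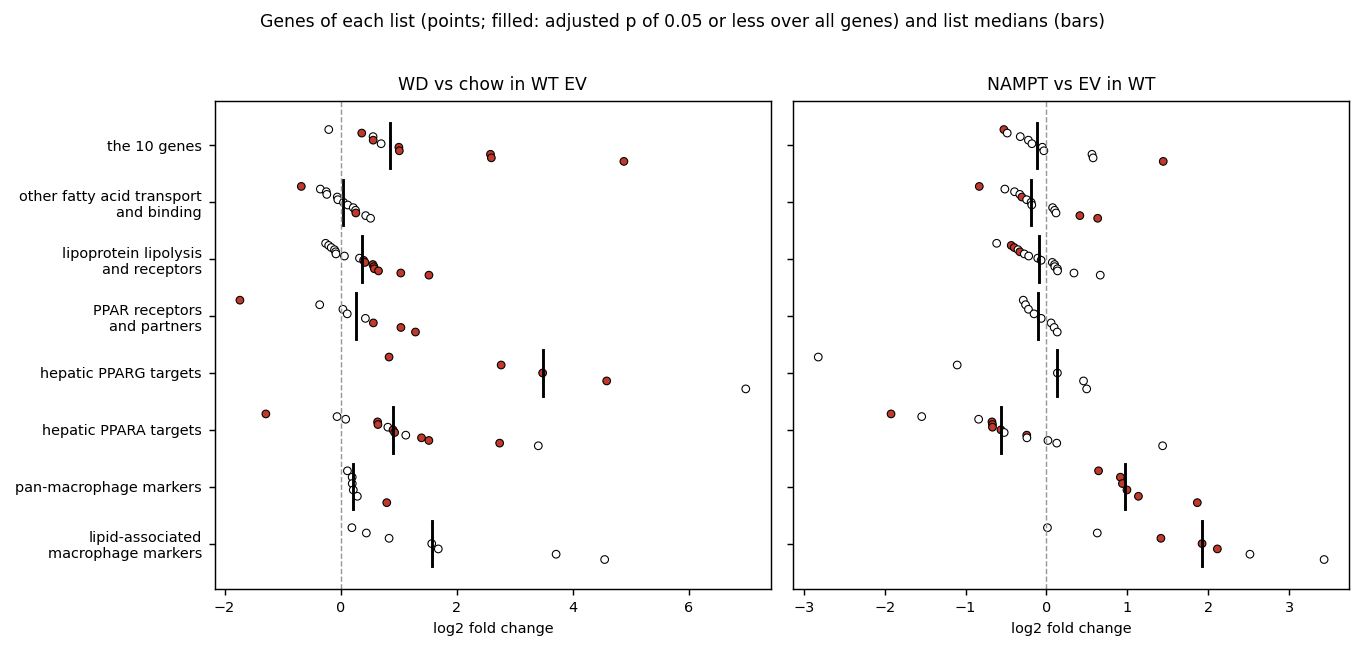
log2 fold change (horizontal) of every tested gene of the 10 and of 7 further lists (vertical) for WD against chow in WT EV (left) and NAMPT against EV in WT on WD (right); bars are list medians and filled points have an adjusted p of 0.05 or less over all genes. On the left 4 of 5 PPARG targets are filled at higher values, and on the right 6 of 6 pan-macrophage markers are filled at higher values and 6 of 13 PPARA targets at lower values.

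On WD, NAMPT in WT mice changed 2 of the 10 genes, in opposite directions: Lpl rose and Slc27a2 fell. Over all genes, 13.4% were called in this comparison, so 2 of 10 is near that share. With 1 library left out, between 132 (without WT NAMPT mouse 3) and 2846 genes (without WT NAMPT mouse 6) were called. The median log2 fold change was -0.12 over the 10 genes and 0.004 over all genes. None of the 10 had groups that did not overlap, against 0.96% of all genes. This comparison uses the same WD WT EV libraries as the diet comparison.

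Lpl ran from 25.2 to 76.0 with a median of 34.9 CPM in WD WT EV and from 35.1 to 174 with a median of 113 CPM in WD WT NAMPT. WT NAMPT mice 1 to 4 lay above every WT EV mouse, while mice 5 and 6 lay within the range of the EV group. The log2 fold change of Lpl was 1.44 ± 0.30 (SE), or 2.72-fold, with a limma adjusted p of 0.00922. It was not called without WT NAMPT mouse 3 (adjusted p of 0.051), without quality weights, or with 2 surrogate variables, where the log2 fold change was 0.58. Without the 3 libraries of low weight it was 1.51 with an adjusted p of 0.00697.

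Slc27a2 ran from 894 to 1217 with a median of 1116 CPM in WD WT EV and from 454 to 1264 with a median of 723 CPM in WD WT NAMPT. WT NAMPT mice 1 to 4 lay below every WT EV mouse, and mouse 6 lay above them all. The fitted value was 1.44-fold lower (log2 fold change of -0.53 ± 0.13, SE), with a limma adjusted p of 0.0158. The call was lost in 7 of the 12 alternatives, edgeR and DESeq2 among them, and in the fits without WT EV mouse 2 or 6 or WT NAMPT mouse 3.

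Other members had an unadjusted limma p under 0.05 but did not pass the adjusted threshold. Fabp1 was 2616 to 7711 CPM with NAMPT, with a median of 3999 CPM, and its log2 fold change was -0.49 with a limma adjusted p of 0.0550. In WT NAMPT mice 1 to 6, in that order, Fabp1 was 2616, 2733, 3718, 4281, 6209.7 and 7711 CPM. In the same order Slc27a2 was 543, 454, 664, 783, 929 and 1264 CPM, and Lpl was 151, 174, 109, 116, 64.6 and 35.1 CPM. What the mouse numbers stand for is not labelled, and the part of their order was not tested. Without the 3 libraries of low weight Fabp1 was called, with an adjusted p of 0.0476. Fabp2 had a log2 fold change of -0.32 (adjusted p of 0.0938), and Slc27a4 one of -0.22 (adjusted p of 0.165). Fabp4 had a log2 fold change of 0.58 (adjusted p of 0.108), which was 0.34 without WT EV mouse 2 and turned to -0.38 with 2 surrogate variables, and Fabp5 had one of 0.56 (adjusted p of 0.144). Fabp1, Fabp2 and Fabp4 were called without WT NAMPT mouse 6. Cd36, Mfsd2a and Vldlr had 95% intervals of the log2 fold change of -0.75 to 0.39, -0.49 to 0.39 and -0.75 to 0.69. Changes within those ranges are not excluded.

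Macrophage markers moved with these values. All 6 pan-macrophage markers rose with NAMPT in WT, from 1.56-fold for Csf1r to 3.64-fold for Itgam, with a median log2 fold change of 0.97. Of 7 lipid-associated macrophage markers 3 rose, namely Trem2 (3.8-fold), Itgax (4.33-fold) and Cd63 (2.67-fold), with a median log2 fold change of 1.92. The summed CPM of the lipid-associated list was 30.0 to 145 in WD WT EV and 27.7 to 359.6 in WD WT NAMPT, and that of the pan-macrophage list 152 to 232 and 153 to 578. WT NAMPT mouse 6, with the lowest Lpl and the highest Slc27a2 of its group, also had the lowest sum of both lists. The stellate cell markers Des, Col1a1 and Col3a1 rose as well, as did the Kupffer cell markers Cd5l (1.87-fold) and Marco (6.94-fold), while of the endothelial markers Pecam1 rose and Clec4g fell. Of 8 hepatocyte markers 1, Apoa2, fell 1.49-fold. Their part in the changes of Lpl and Slc27a2 was not tested.

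The called PPARA targets moved the other way. With NAMPT in WT, 6 of 13 fell and 0 rose, and the falls included those of Cyp4a10 (3.79-fold), Acot1 (1.59-fold), Ehhadh (1.48-fold) and Hadha (1.18-fold). These genes encode enzymes of fatty acid oxidation and acyl-CoA hydrolysis. The log2 fold change was positive for 3 of the 13 PPARA targets. Among these, Fgf21 was 2.71-fold higher without passing the test (limma adjusted p of 0.0647). Of the other transport list, Acsl1, which activates long-chain fatty acids, fell 1.78-fold and Got2 fell 1.23-fold, while Fabp7 rose 1.55-fold and Acsl4 rose 1.33-fold. Of the lipolysis list 3 of 16 fell and 0 rose, and the falls included those of Lmf1, which matures the lipase (1.35-fold), and Apoc3 (1.26-fold). Among clock genes Arntl fell 3.96-fold and Npas2 3.93-fold, Clock fell 1.35-fold, and Noct rose 2.66-fold. The part of the hour of collection was not tested.

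**Figure D4:**
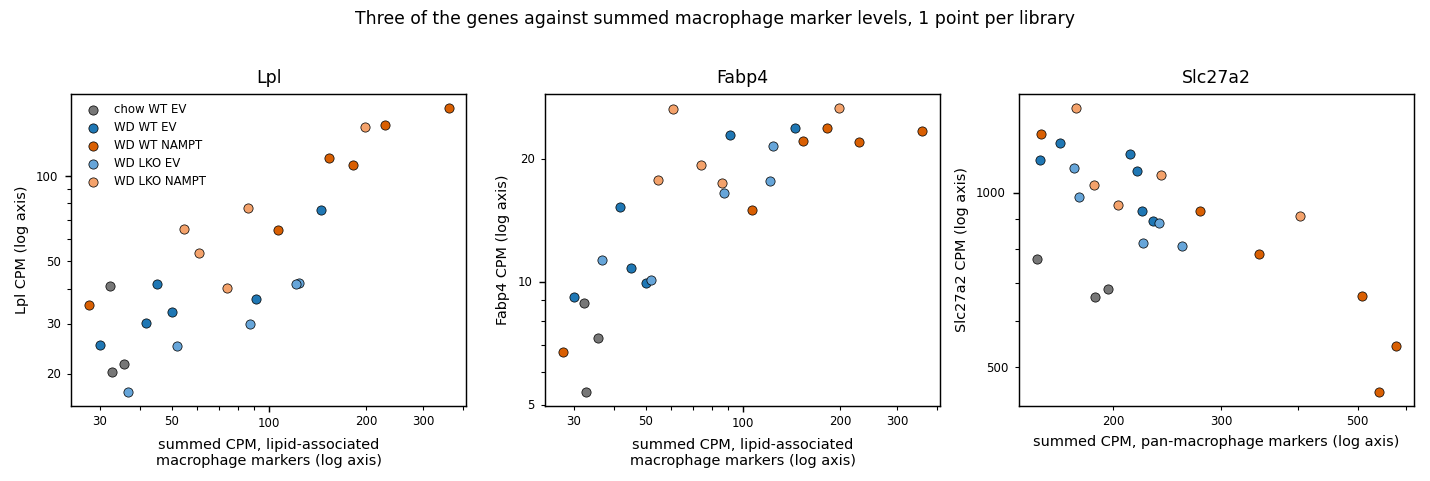
Lpl and Fabp4 (CPM, log axes) against the summed CPM of 7 lipid-associated macrophage markers, and Slc27a2 against the summed CPM of 6 pan-macrophage markers, 1 point per library coloured by group. WD WT NAMPT mice 1 and 2 have the highest Lpl and the lowest Slc27a2 of all libraries at high marker sums, while chow libraries have low Slc27a2 (661 to 769 CPM) at low sums.

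In LKO mice on WD, NAMPT changed 0 of the 10 genes at an adjusted p of 0.05 by limma, and 0 by edgeR or DESeq2. Only 0.00711% of all genes, a single gene, were called in this comparison, and 1 of the 10, Lpl, had an unadjusted p under 0.05. Lpl was 41.9, 29.9, 41.4, 17.3 and 25 CPM in LKO EV and 149, 40.1, 53.5, 65.1 and 76.9 CPM in LKO NAMPT. Only LKO NAMPT mouse 2 fell within the range of the EV group. The log2 fold change of Lpl was 1 ± 0.31 (SE), or 2-fold, with a limma adjusted p of 0.277. Fabp1 was 5284 to 8066 CPM in LKO EV and 3807 to 6038 CPM in LKO NAMPT, with a 95% interval of the log2 fold change of -0.70 to 0.03 and an adjusted p of 0.566. Slc27a2 was 809 to 1105 CPM in LKO EV and 912 to 1400.1 CPM in LKO NAMPT, with an interval of -0.11 to 0.47 and an adjusted p of 0.723. Pan-macrophage sums were 173 to 259 CPM in LKO EV and 174 to 403 CPM in LKO NAMPT, where mouse 1 had the highest sum and the highest Lpl.

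The test of the difference between the NAMPT effects in LKO and WT called 0 of the 10 genes by limma or edgeR, and 0.00711% of all genes by limma. DESeq2 gave an adjusted p to only 704 genes in this test, so its count says nothing of members without one. Slc27a2 and Fabp5 had an unadjusted p under 0.05. Slc27a2 had a log2 change of 0.18 in LKO and of -0.53 in WT, a difference of 0.71 ± 0.19 (SE) with a limma adjusted p of 0.0774. Fabp5 had a log2 change of -0.30 in LKO and 0.56 in WT, a difference of -0.86 with a limma adjusted p of 0.185. For Lpl the 95% interval of the difference was -1.34 to 0.46, so differences of the NAMPT effect on Lpl within that range are not excluded.

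Between genotypes with NAMPT on WD, 1 of the 10 genes was called: Slc27a2 was higher in LKO. Over all genes 7.96% were called. Slc27a2 was 912, 953, 1400.1, 1032 and 1071 CPM in LKO NAMPT, against a median of 723 CPM in WT NAMPT. The groups overlapped through WT NAMPT mice 5 and 6. For Slc27a2 the log2 fold change was 0.47 ± 0.14 (SE), or 1.38-fold, with a limma adjusted p of 0.0456. The call was lost in 11 of the 12 alternatives, among them that without the 3 libraries of low weight, and in 7 of the 11 fits without 1 library, those without WT NAMPT mouse 1, 2, 3 or 4 or LKO NAMPT mouse 2, 3 or 5, where the adjusted p reached 0.188.

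Cd36 was the only one of the 10 genes whose groups did not overlap in that comparison, which held for 1.39% of all genes. It was 261, 241, 283, 211 and 289 CPM in LKO NAMPT and 78.9 to 176 CPM in WT NAMPT. Every LKO NAMPT mouse was thus above every WT NAMPT mouse. The log2 fold change of 0.76 ± 0.30 (SE), or 1.70-fold, did not pass the test, with a limma adjusted p of 0.0994. Fabp2 had a log2 fold change of 0.41 (adjusted p of 0.0628) and was called without WT NAMPT mouse 5 or 6 or LKO NAMPT mouse 1. Lpl had one of -0.73 (adjusted p of 0.131), which was -0.37 without LKO NAMPT mouse 2 and -0.06 with 2 surrogate variables, and it was called without LKO NAMPT mouse 1.

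Genes of some neighbouring lists were called in that comparison too. Of 13 PPARA targets 7 were higher in LKO NAMPT than in WT NAMPT and 0 lower, with Cyp4a10 at 5.45-fold and Cyp4a14 at 4.41-fold. Acsl1 was 1.69-fold and Got2 1.28-fold higher. Of 6 pan-macrophage markers 4 were lower, by 1.48-fold for Csf1r to 2.42-fold for Itgam, and 0 of 7 lipid-associated macrophage markers passed the test. The median log2 fold change of those 7 was -1.03, with 1 of them above 0. Of 8 hepatocyte markers 1, Apoa2, was 1.48-fold higher. These list calls rest on few mice, since the genes called over the whole table went from 1120 to 0 without LKO NAMPT mouse 2 and to 2 without LKO NAMPT mouse 5. Their part in the difference of Slc27a2 was not tested. This comparison shares its WT NAMPT libraries with that of NAMPT in WT.

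With the empty vector on WD, LKO and WT mice differed in 0 of the 10 genes by limma, edgeR or DESeq2, with 0 at an unadjusted p under 0.05, and in 0.00711% of all genes by limma. The log2 fold changes ran from -0.29 for Lpl to 0.45 for Fabp5. Mfsd2a, at 181, 185, 186, 187 and 189.5 CPM in LKO EV, had the narrowest spread of any group, with a coefficient of variation of 1.73% against 32.1% in WD WT EV. Its 95% interval of the log2 fold change was -0.04 to 0.82, with a limma adjusted p of 0.832. For Cd36 the 95% interval of the log2 fold change was -0.33 to 0.79.

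Within groups, Lpl and Slc27a2 deviated in opposite directions. These values are Pearson correlations of log2 CPM deviations from group means over the 25 libraries, which share depth and scaling, and they are descriptions only. Slc27a2 and Lpl had an r of -0.77, and Fabp2 and Lpl one of -0.73. Lpl and Fabp4 had an r of 0.75, and Fabp1 and Fabp2 one of 0.67. Cd36 and Vldlr had an r of 0.80 and were close to Fabp4, at 0.69 and 0.72. Mfsd2a was close to none of the others, with its highest r of 0.55 to Fabp1 and to Vldlr.

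The same deviations were set beside the summed lists, none of which contains a listed gene. Lpl had an r of 0.89 and Fabp4 one of 0.85 with lipid-associated macrophage markers, and Slc27a2 had one of -0.86. Cd36 and Vldlr had r values of 0.74 and 0.73 with hepatic PPARG targets. Slc27a2 and Mfsd2a had r values of 0.78 and 0.77 with hepatic PPARA targets. Stellate cell markers had an r of 0.81 with both Lpl and Fabp4 and of -0.74 with Slc27a2. Endothelial markers had an r of 0.66 with Fabp4 and of 0.33 with Lpl.

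**Figure D5:**
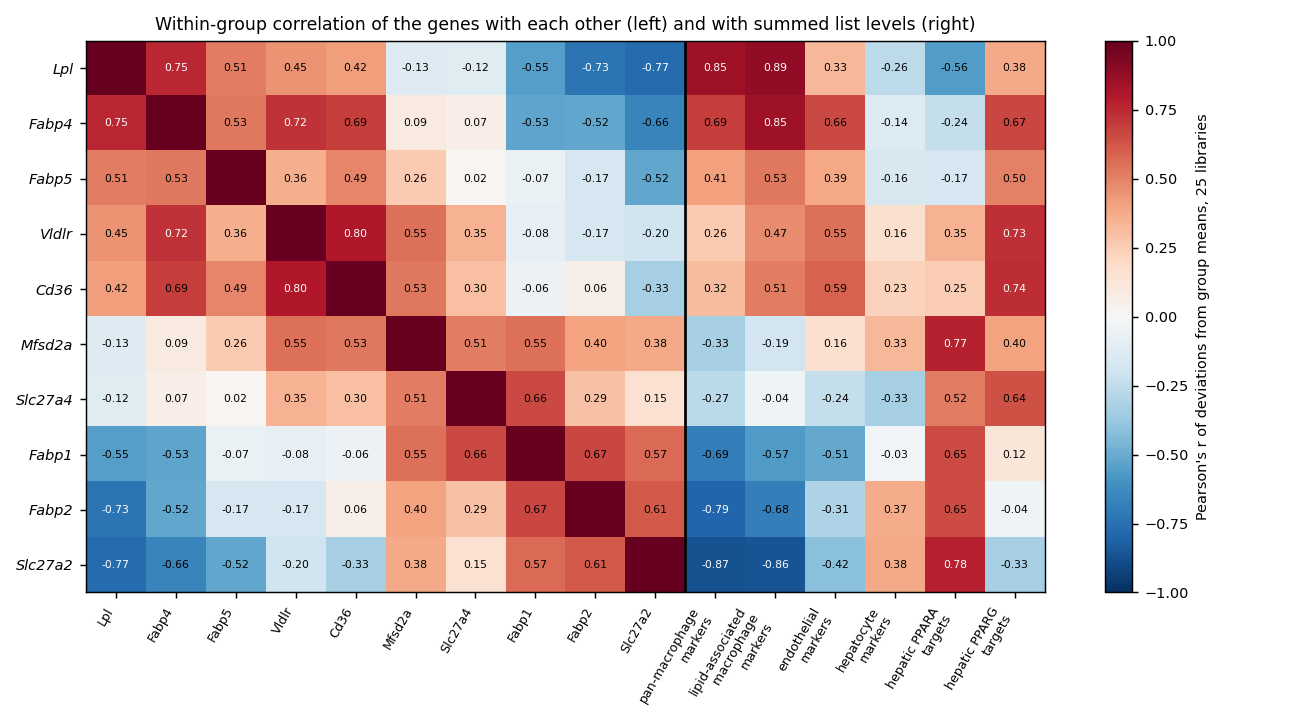
Pearson's r (colour and printed value) of deviations from group means over 25 libraries, for the 10 genes with each other (left block) and with the summed CPM of 6 lists (right block). Lpl and Fabp4 stand opposite to Slc27a2, Fabp2 and Fabp1, and the highest value between listed genes is 0.80 for Cd36 with Vldlr.

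The genes nearest to each member by the same measure, among 13782 genes with a mean log2 CPM of 0 or more, were named by rank. For Lpl they were Itgax (0.92), a marker of dendritic cells and lipid-associated macrophages, the complement receptor gene C5ar1 (0.92) and the amino acid transporter gene Slc7a8 (0.91). For Slc27a2 they were Acsl1 (0.94), the catalase gene Cat (0.94) and Phyh (0.93), which encodes a peroxisomal enzyme of branched fatty acid breakdown. For Fabp4 they were the endothelial marker Pecam1, Gstm3 and Samd4 (each 0.92). For Cd36 they were Slc35f5 (0.90), 2010003K11Rik (0.89) and the lysosomal lipase gene Lipa (0.89). For Mfsd2a they were Ndufa10 (0.82), a complex I subunit gene, the stearoyl-CoA desaturase gene Scd1 (0.81) and Fgfrl1 (0.80). For Fabp1 they were Pex16, Cycs (both 0.87) and Dnpep (0.86), and for Fabp2 Atg13 (0.87), Lactb and Idh1 (both 0.85). For Slc27a4 they were Taldo1 and Glrx5 (both 0.87) and Clpb (0.86), and for Vldlr Slc22a27 (0.86), Ctse and Myo1d (both 0.85). Fabp5 had the loosest neighbours, G6pdx (0.79), Adamtsl1 (0.78) and Chrna4 (0.76).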

How the data were processed

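Poly-A selected liver RNA from 25 mice was sequenced as single reads. The authors aligned reads with STAR to GRCm38 and deposited gene counts from featureCounts, with CPM and RPKM computed from them. Recomputed from counts and gene lengths, the deposited CPM and RPKM differed by at most 5.9e-14 in relative terms, so only counts were used. The submitters' processing notes name STAR 2.5.1a and featureCounts 1.4.6-p5, whereas the study's methods name other versions. Use of strand is not given in the sources used here. A label text names the vector insert as SIRT1, whereas titles name NAMPT, which was followed.

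Genes above 1 CPM in at least 2 libraries were kept and 4 ribosomal RNA genes removed. Counts were fitted with TMM factors and voomWithQualityWeights (limma 3.58.1, edgeR 4.0.16, R 4.3.3), 1 mean per group. Benjamini-Hochberg adjusted p-values of 0.05 or less over 14065 genes were called. Folds and intervals are those of this fit and levels are TMM-scaled CPM. Correlations used log2(CPM + 0.5). Replicates are separate mice. Intervals and p-values cover the spread between them, and cage and batch are not labelled. Counts of any pair of libraries in a group differed beyond sampling noise (lowest chi-square 15.1 per df). In simulated counts for NAMPT in WT, with 200 of 14065 genes changed, 69.5% of 2-fold and 39.5% of 1.5-fold changes were recovered. False calls numbered 9 and 1. Each gene was drawn with the same dispersion in every library, without the unequal library quality of the data. These rates therefore do not give the recovery in the real counts.

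Alternatives were edgeR's quasi-likelihood and exact tests, DESeq2 1.42.0, no quality weights, other size factors and filters, only the groups compared, 2 surrogate variables (sva 3.50.0), a replicate block, and each library left out. Leaving out the 3 libraries with a weight under 0.5 was added after seeing the data. Replicate numbers are reused for different mice and do not pair them. Some called genes of the lists are counted but not reported here by name. The members and lists were chosen with earlier results of these data known. Named genes are the 10 members, called genes of the lists or those needed for a count, and the 3 genes most like each member. A log2 fold change of a member was given where its unadjusted p was under 0.05. Other log2 fold changes appear only as intervals, as a range over the members or as the pair of values behind an interaction.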

Additional observations from a re-analysis of the deposited data

Results flagged for a closer look

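Of 40 groups of 5 or 6 libraries examined over the 10 genes, 2 held a library far from the others, and chance flags about 1 in 20 groups, or 2 of 40. Fabp2 in LKO NAMPT mouse 1 was 126 CPM, against 203 CPM in the nearest mouse of that group. The same mouse had the highest Lpl and the highest macrophage sums of its group, and in the comparison of LKO with WT under NAMPT, Fabp2 and Lpl were called without it. Lpl in WD WT EV mouse 1 was 76.0 CPM, against 41.4 CPM in the nearest mouse, and its sum of lipid-associated macrophage markers, 145 CPM, was the highest of its group. The part of these markers was not tested.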

How the results depend on the processing

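Under the diet, Mfsd2a, Cd36, Fabp2 and Fabp1 were called in every fit run, and the count of called members was 7 of 10, but 4 with edgeR's quasi-likelihood test and 4 without quality weights, and 4 to 7 with 1 library left out. For NAMPT in WT the count of 2 became 1 with the quasi-likelihood test, the exact test, DESeq2 or only the groups compared, and 0 without quality weights or with 2 surrogate variables. With 1 library left out it ran from 0 to 5, with 0 without WT NAMPT mouse 3 and 5 (Fabp1, Fabp2 and Fabp4 added) without WT NAMPT mouse 6. Fabp1 and Fabp2 were also called without WT NAMPT mouse 5 or WT EV mouse 8, and Fabp4 without WT EV mouse 1 or 4. Without the 3 libraries of low weight, a choice made after seeing the data, it was 3 (Fabp1 added). For LKO against WT with NAMPT the count of 1 became 0 in every alternative except the mean CPM filter and the block, and ran from 0 to 3 with 1 library left out. For the interaction it was 0, or 1 (Slc27a2) without WT NAMPT mouse 5 or 6 or LKO NAMPT mouse 1. For NAMPT in LKO and for LKO against WT with EV it was 0 in all fits. The genes called over all 14065 also moved, from 1890 to 192 without quality weights for NAMPT in WT, from 1120 to 38 for LKO against WT with NAMPT, and from 3101 to 1201 for the diet. With 1 library left out these ran from 132 to 2846, from 0 to 2287 and from 843 to 3171. With library size alone the median log2 fold change of all genes for NAMPT in WT was 0.16, against which the members' median was 0.05.

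The replicate number as a block gave 3 members for NAMPT in WT (Cd36, Vldlr and Lpl), 1 (Cd36) for the interaction and 1 (Cd36) for LKO against WT with NAMPT, and 8 under the diet, where Lpl and Vldlr were added and Slc27a2 was lost. The numbers did not pair the mice: correlations of same-numbered libraries ran from -0.23 to 0.42 over 4 pairs for NAMPT against EV in WT. Fabp4 with NAMPT in WT reversed to a log2 fold change of -0.38 with 2 surrogate variables. The exact test has no interaction. The causes were not tested. Vldlr, Fabp5 and Fabp4 had few reads and the chow group had 3 mice. How far each of these limited what could be detected was not tested.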
